A study of Mus musculus with 9 samples.

Results

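S100a4, vimentin (Vim) and the transcription factors that drive epithelial-mesenchymal transition (EMT) were followed in a mouse oral squamous cell line with and without Csmd3. The set held 8 genes, S100a4, Vim, Twist1, Twist2, Snai1, Snai2, Zeb1 and Zeb2, taken by symbol. Of these, 6 had a row of their own among 15446 uniquely named genes, and Twist1 and Zeb1 had none and were unmeasured here. All 6 also lay among the 6965 genes that reached the minimum for testing, a mean level of 1 FPKM. The members were chosen by their names and with their FPKM differences between knockouts and control already known, so those differences are described here without a test. The difference of one knockout from the other follows from them and is described in the same way.

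In EMT, epithelial cells loosen their junctions, exchange keratin for vimentin filaments and become motile. The SNAIL (Snai1, Snai2), ZEB (Zeb1, Zeb2) and TWIST (Twist1, Twist2) proteins bind E-box sequences in DNA and repress epithelial genes such as Cdh1, which encodes E-cadherin. Vimentin is the main intermediate filament protein of mesenchymal cells, and S100A4 is a calcium-binding protein that binds non-muscle myosin and is found in motile cells and fibroblasts. In squamous carcinoma, partial forms of this programme are known at invasive edges.

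The samples were 9 libraries of polyadenylated RNA from the murine oral squamous line ROC6, grown as cultures in the same serum-containing medium. A first group of 3 carried a CSMD3 knockout made with guide 1, a second group of 3 a CSMD3 knockout made with guide 2, and the last 3 were labelled WT control. The series describes each knockout as 1 clone, and no label ties replicates to separate cultures. The p-values therefore cover library-to-library spread alone, possibly technical. Values are FPKM, fragments per kilobase of transcript scaled to the mapped fragments of each library, so levels can be compared between genes, but read depth is unknown. The deposited rows are named as genes changed in common: for all 6965 tested genes both knockout means lie to one side of the control, so a shared direction is a property of the rows. In bulk RNA, a change in the share of cells that express a gene and a change in the RNA per cell cannot be told apart. Of 19 markers of squamous keratinocytes 11 had a row, and the keratins among them were near 0, with highest values of 0.920 FPKM for Krt15, 0.797 for Krt13, 0.354 for Krt16 and 0.249 for Krt17 in any library. Krt15 and Krt13 were at 0 in all control libraries and averaged 0.735 and 0.585 FPKM with guide 2. Perp, a desmosomal membrane protein, reached 108 FPKM and Pitx1, an oral homeobox factor, 104 FPKM. Other markers went both ways. In control, guide 1 and guide 2, Sfn averaged 1.03, 2.99 and 1.61 FPKM, and Itga6 2.23, 9.49 and 2.34 FPKM. Pax9 averaged 14.04, 7.23 and 13.4 FPKM in the same order, and Itgb4 0.843, 0.308 and 0.612 FPKM. The sum of these markers was 196 to 205 FPKM in the control, 203 to 219 with guide 1 and 131 to 136 with guide 2, where Pitx1 averaged 101, 86.4 and 29.97 FPKM. Krt5, Krt14 and Trp63, other defining markers, had no row and were unmeasured here.

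The promoters of the member with the largest gain (S100a4), the most abundant member (Vim) and the member that was lower in both knockouts (Snai1) are shown, since E-boxes are the sites through which these factors act. The sequences are the 250 bases before the RefSeq start, GRCm38.p6, all on the + strand, at chr3:90603520-90603769, chr2:13574061-13574310 and chr2:167537945-167538194. Capitals mark the E-box CACCTG, searched on both strands, and the TATA box TATAAA, searched on the strand shown.
S100a4: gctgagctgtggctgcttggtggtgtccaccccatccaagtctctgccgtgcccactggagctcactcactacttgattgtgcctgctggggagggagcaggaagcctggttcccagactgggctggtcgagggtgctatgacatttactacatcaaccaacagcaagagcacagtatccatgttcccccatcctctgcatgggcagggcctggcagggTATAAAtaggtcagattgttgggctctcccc
Vim: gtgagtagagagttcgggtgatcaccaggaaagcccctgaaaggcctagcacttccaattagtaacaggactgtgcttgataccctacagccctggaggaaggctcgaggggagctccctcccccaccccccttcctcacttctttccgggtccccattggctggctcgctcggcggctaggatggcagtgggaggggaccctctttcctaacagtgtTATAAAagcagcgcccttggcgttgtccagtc
Snai1: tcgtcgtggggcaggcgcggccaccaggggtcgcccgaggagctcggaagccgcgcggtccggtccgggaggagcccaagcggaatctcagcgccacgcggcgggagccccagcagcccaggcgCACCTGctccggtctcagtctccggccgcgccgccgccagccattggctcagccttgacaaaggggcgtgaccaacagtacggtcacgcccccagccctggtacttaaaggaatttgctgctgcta

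A TATAAA began 31 bases before the start in S100a4 and 32 bases before it in Vim. It was found in 7.59% of 32851 RefSeq promoter windows of this length. CACCTG began 126 bases before the start in Snai1 and was in 17.2% of all windows. These letters were not found in the S100a4 and Vim windows, nor in that of Twist2, which held 4 copies of the GC box GGGCGG (searched on both strands, present in 32.7% of windows). CANNTG, the general E-box that also covers CACCTG, was in 66.2% of windows and, among those 4 genes, in Snai1 alone. A match of letters is a description and not evidence of binding. The windows of S100a4 and Vim held 57.2% and 58.4% G and C, that of Snai1 70.0% and that of Twist2 68.8%, where the median window held 52.4%.

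S100a4 was barely expressed in the control and abundant in both knockouts. The control libraries held 1.21, 2.85 and 3.21 FPKM. The guide 1 libraries held 45.4, 39.5 and 39.7 FPKM, and the guide 2 libraries 257, 202 and 183 FPKM. The 3 groups did not overlap, with the control lowest and guide 2 highest. In the ranking of all 15446 genes by mean level, S100a4 stood at place 5785 in the control, 748 for guide 1 and 97 for guide 2.

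The mean of S100a4 was 17.1 times the control mean with guide 1 and 88.2 times with guide 2. On the log2(FPKM + 1) scale used for the fit, these differences were 3.69 and 6.01 (SE 0.212 for each), places 14 and 1 from the top among tested genes. Because the control lies near the pseudocount, a pseudocount of 0.1 FPKM gave 4.15 and 6.50. The control level varied most, with an SD of 43.9% of the mean, against 8.06% with guide 1 and 17.9% with guide 2. Leaving out any one library kept the difference between 3.40 and 3.86 with guide 1 and between 5.72 and 6.19 with guide 2.

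Vim was the most abundant member in every library. It stood at 512, 491 and 508 FPKM in the control, 655, 658 and 691 FPKM with guide 1, and 531, 558 and 558 FPKM with guide 2. No group overlapped another, and the SD was 2.23% to 2.94% of the mean. By mean level Vim was at place 22 of all genes in the control, 16 for guide 1 and 21 for guide 2. Its mean was 1.33 times the control mean with guide 1 and 1.09 times with guide 2, on the log2 scale 0.41 and 0.12 (SE 0.0409 for each). After quantile normalization the guide 2 difference was -0.021, so its direction depends on the scaling. Vimentin transcripts were thus already high in the control cells. The ratio of S100a4 to Vim FPKM averaged 0.00483 ± 0.00215 (SD, n = 3) over control libraries. It averaged 0.0623 ± 0.00621 for guide 1 and 0.391 ± 0.0816 for guide 2.

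**Figure D1:**
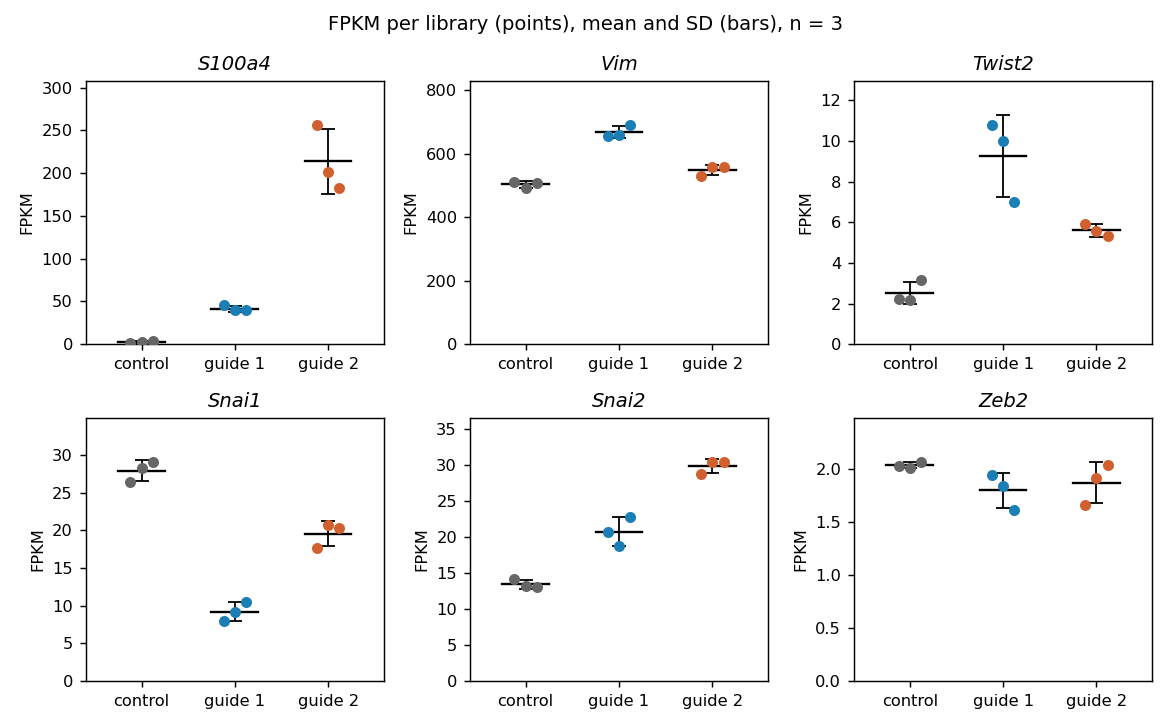
FPKM (vertical axes, each from 0) of the 6 measured members in control, guide 1 and guide 2 libraries; points are libraries, lines are means and bars SDs over 3 libraries. S100a4, Vim, Twist2 and Snai2 lie above the control in both knockouts, Snai1 lies below it, and Zeb2 stays between 1.62 and 2.07 FPKM.

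The SNAIL genes differed from the control in opposite directions. Snai1, which encodes SNAIL, stood at 26.5, 28.2 and 29.1 FPKM in the control, 8.002, 9.12 and 10.5 FPKM with guide 1, and 17.7, 20.7 and 20.3 FPKM with guide 2. Control libraries were highest, guide 1 libraries lowest, and no group overlapped another. Snai2, which encodes SLUG, a factor also expressed in basal keratinocytes, stood at 14.2, 13.16 and 13.04 FPKM in the control. It stood at 20.7, 18.8 and 22.8 FPKM with guide 1 and at 28.7, 30.5 and 30.5 FPKM with guide 2. Here the control was lowest and guide 2 highest, again without overlap. The log2 differences from control were -1.51 and -0.50 for Snai1 (SE 0.0898 for each) and 0.59 and 1.10 for Snai2 (SE 0.0678 for each), with guide 1 and guide 2.

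Which SNAIL gene was the more abundant one differed as well. The ratio of Snai2 to Snai1 FPKM was 0.537, 0.467 and 0.448 in the control libraries, 2.58, 2.06 and 2.17 with guide 1, and 1.62, 1.48 and 1.51 with guide 2. It lay under 1 in all 3 control libraries and over 1 in all 6 knockout libraries. The sum of both genes was 41.4 ± 0.747 FPKM (SD, n = 3) over control libraries, 29.99 ± 2.92 for guide 1 and 49.5 ± 2.64 for guide 2. The sum was therefore below the control in 1 knockout and above it in the other.

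**Figure D2:**
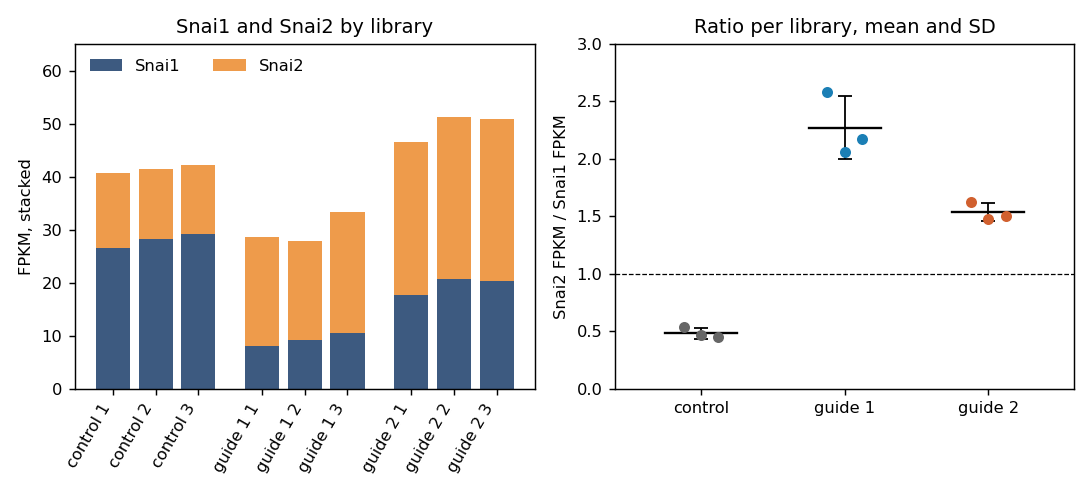
Left, FPKM of Snai1 and Snai2 stacked for each of the 9 libraries; right, the ratio of Snai2 to Snai1 FPKM per library (points) with mean and SD, where the dashed line marks a ratio of 1. Control ratios lie between 0.448 and 0.537, guide 1 ratios between 2.06 and 2.58 and guide 2 ratios between 1.48 and 1.62.

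Twist2, a basic helix-loop-helix factor of mesenchyme and dermal fibroblasts, was low in the control, at 2.21, 2.18 and 3.16 FPKM. It stood at 10.8, 9.98 and 6.99 FPKM with guide 1 and at 5.92, 5.57 and 5.31 FPKM with guide 2. The groups did not overlap, but the guide 1 libraries spread widely, with an SD of 21.7% of the mean. The log2 differences from control were 1.54 with guide 1 and 0.92 with guide 2 (SE 0.145 for each). An antisense gene, Gm29100, shares 1468 exonic bases with Twist2 in the GENCODE M21 annotation. Whether the counting used strand is not given in the sources used here. Gm29100 was listed at no more than 1.67 FPKM in any library, and averaged 0.314 FPKM in the control, 0.893 for guide 1 and 0.864 for guide 2, and its part in the Twist2 values was not tested.

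Zeb2, a zinc finger repressor, was the lowest measured member in every group. It stood at 2.04, 2.01 and 2.07 FPKM in the control, 1.94, 1.84 and 1.62 FPKM with guide 1, and 1.67, 1.92 and 2.04 FPKM with guide 2. The guide 1 libraries lay below the control, and the guide 2 libraries overlapped both other groups. The log2 differences from control were -0.12 and -0.083 (SE 0.0756 for each). An antisense gene, Zeb2os, shares 181 exonic bases with Zeb2 in GENCODE M21 and had no row.

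Both knockouts thus had 4 members whose library ranges lay wholly above the control (S100a4, Vim, Twist2 and Snai2) and 1 wholly below it (Snai1). Among all tested genes, 24.7% lay wholly above the control in both knockouts and 29.0% wholly below it. Taken singly, guide 1 had 4 members above and 2 below, where 32.3% of tested genes lay above, 39.7% below and 71.9% either way. Guide 2 had 4 above and 1 below, where 33.1% lay above, 35.5% below and 68.6% either way. Since the members were chosen with these contrasts known, nothing is read from these shares.

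The order of the members by level also changed. In the control it was Vim, Snai1, Snai2, Twist2, S100a4 and Zeb2, and the ranges of Twist2 and S100a4 overlapped, as did those of S100a4 and Zeb2. With guide 1 it was Vim, S100a4, Snai2, Twist2, Snai1 and Zeb2, where only Twist2 and Snai1 overlapped as neighbours, with means of 9.25 and 9.21 FPKM. With guide 2 it was Vim, S100a4, Snai2, Snai1, Twist2 and Zeb2, and no neighbours overlapped. S100a4 moved from the fifth place to the second in both knockouts, and Snai1 stood behind Snai2.

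The knockouts were also set against each other. The libraries of the 2 guides did not overlap for 5 of 6 members. S100a4, Snai1 and Snai2 were higher with guide 2, and Vim and Twist2 were lower, each with all 3 libraries of one knockout beyond all 3 of the other. Among all tested genes, 31.2% were called higher with guide 2 and 23.3% lower, at a limma adjusted p under 0.05, 54.5% in all. Ranges lay wholly higher with guide 2 for 34.8%, lower for 26.6% and apart in either direction for 61.5%. Nothing is read from these shares, since the values of the members under both guides were known when they were chosen. The S100a4 mean was 5.14 times as high with guide 2, a log2 difference of 2.32 (SE 0.212), at place 15 of all tested genes. Snai1 was 2.12 times as high, at 1.01 (SE 0.0898), and Snai2 1.44 times as high, at 0.51 (SE 0.0678).

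Twist2 was lower with guide 2, at a log2 difference of -0.62 (SE 0.145), and Vim at -0.28 (SE 0.0409). The libraries of the 2 guides overlapped for Zeb2, at 0.037 (SE 0.0756). By mean, guide 2 lay farther from the control for S100a4 and Snai2, and guide 1 for Snai1, Twist2 and Vim. The differences between guides of S100a4, Snai1, Snai2, Twist2 and Vim kept their sign in each alternative run.

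**Figure D3:**
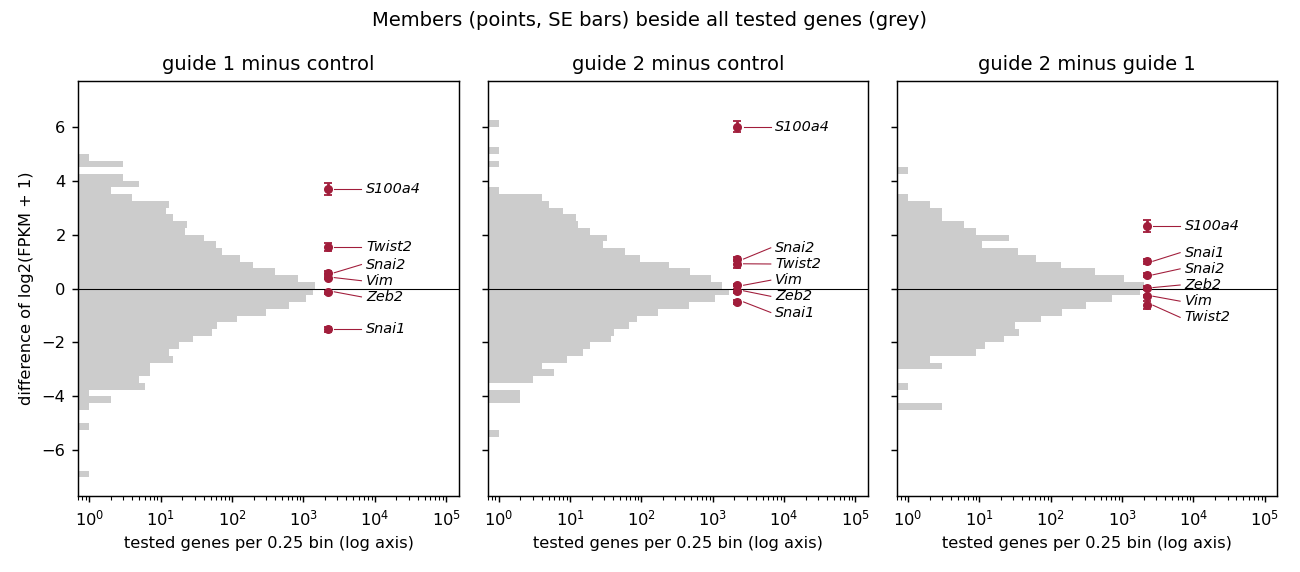
Differences of log2(FPKM + 1) on the vertical axis for guide 1 minus control, guide 2 minus control and guide 2 minus guide 1; grey bars count tested genes per bin on a log axis, and named points with SE bars are the members. S100a4 is the highest of all tested genes for guide 2 minus control at 6.01, and the other members lie between -1.51 and 1.54.

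S100a4 belongs to a family of small calcium-binding proteins whose genes lie side by side, so the other S100 genes were examined. Of 18 listed, 7 had a row and 4 were tested. S100a6, which encodes calcyclin and lies 2 protein-coding genes downstream of S100a4 in GENCODE M21, rose in both knockouts, from 97.1, 95.8 and 118 FPKM in the control to 402, 369 and 331 with guide 1 and 332, 259 and 237 with guide 2. The log2 differences were 1.82 and 1.40 (limma adjusted p = 4.77e-07 and 4.32e-06). Unlike S100a4, S100a6 was lower with guide 2 than with guide 1, by -0.42 (limma adjusted p = 0.0160), a call lost without guide 1 replicate 1 (adjusted p = 0.0601), guide 2 replicate 2 (adjusted p = 0.0535) or guide 2 replicate 3 (adjusted p = 0.0631), and with no filter on low values (adjusted p = 0.0656).

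S100a13, upstream of S100a4, averaged 4.89 ± 0.301 FPKM in control libraries (SD, n = 3), 4.91 ± 1.19 for guide 1 and 12.2 ± 3.22 for guide 2. Against the control this was -0.014 (limma adjusted p = 0.948) and 1.14 (limma adjusted p = 0.000212) on the log2 scale. It was higher with guide 2 than with guide 1 by 1.15 (limma adjusted p = 0.000270). S100a11, a highly expressed member, fell with guide 2 from 699 ± 26.7 to 547 ± 33.4 FPKM (limma adjusted p = 0.000170) and stood at 649 ± 18.2 FPKM with guide 1 (limma adjusted p = 0.0925, and 0.00244 after quantile normalization). S100a10, the annexin A2 partner p11, rose from 129 ± 4.34 to 152 ± 9.34 and 159 ± 22.8 FPKM (limma adjusted p = 0.0372 and 0.0145). Its guide 1 call was lost without guide 1 replicate 1 (adjusted p = 0.119), guide 1 replicate 2 (0.0824), control replicate 1 (0.0873) or control replicate 2 (0.0945). Without a filter on low values it was lost in both knockouts (adjusted p = 0.101 and 0.0517).

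The remaining S100 genes with a row were not tested, as their means were under 1 FPKM. S100a3, 3 gene models upstream of S100a4, averaged 0.0847 ± 0.0755 FPKM over control libraries (SD, n = 3), 1.02 ± 0.0906 for guide 1 and 0.419 ± 0.0367 for guide 2. S100a7a was at 0.341, 1.36 and 0.419 FPKM in the same order, and S100a2 at no more than 0.00250 FPKM by group mean. Each S100 gene tested had smaller log2 differences from the control than S100a4. A same-strand gene model, Gm42674, shares 156 exonic bases with S100a4 in GENCODE M21 and had no row.

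Within guide 2, S100a4 and S100a6 varied together: both were highest in replicate 1, as were S100a10, S100a11 and S100a13. With guide 1, S100a4, S100a6, S100a10 and S100a13 were also highest in replicate 1, and S100a11 in replicate 3. The part of single libraries in these values was not tested. The ratio of S100a4 to S100a6 FPKM was 0.772, 0.778 and 0.773 in the 3 guide 2 libraries, although S100a4 itself ranged from 183 to 257 FPKM. With guide 1 the ratio was 0.113, 0.107 and 0.120, and in the control 0.0125, 0.0298 and 0.0273. Without guide 2 replicate 1, the difference of S100a4 between guide 2 and the control was 5.87, against 6.01 with it, and the difference between guides 2.19, against 2.32.

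**Figure D4:**
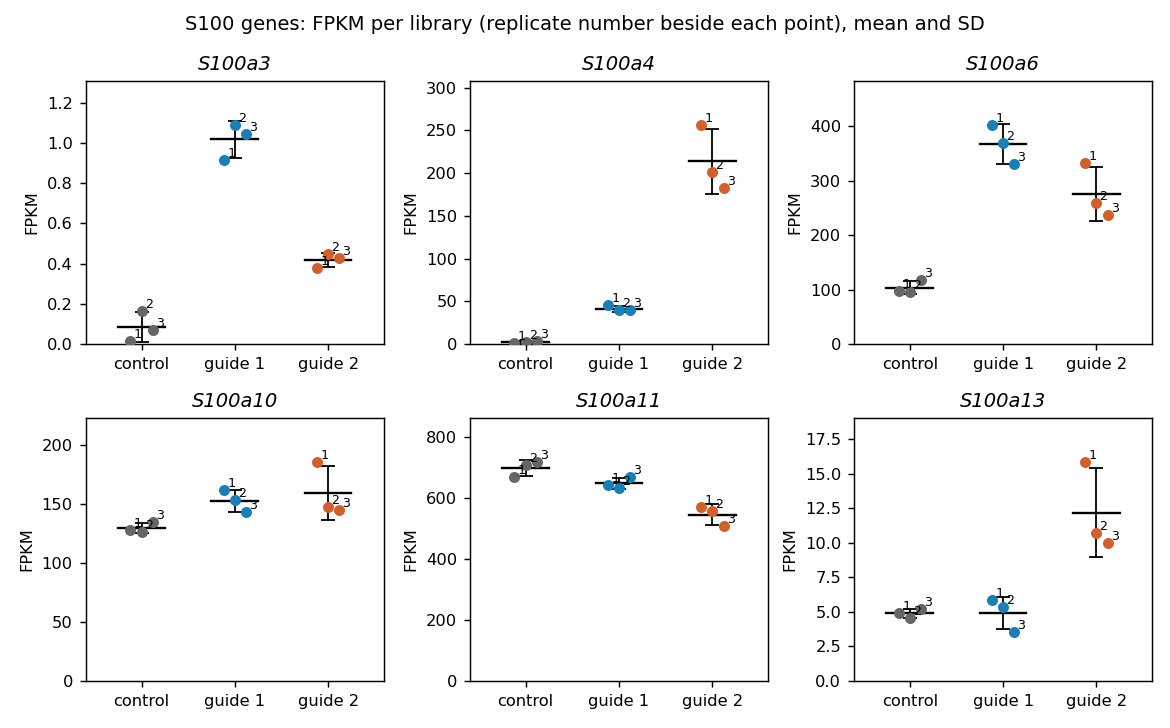
FPKM (vertical axes, each from 0) of S100a4 and 5 other S100 genes in control, guide 1 and guide 2 libraries; points are libraries with their replicate numbers, lines are means and bars SDs. S100a4 and S100a13 are highest with guide 2, S100a3 and S100a6 with guide 1, and S100a11 is highest in the control.

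Genes whose profile over the 9 libraries was most like a member were taken by the root mean square (RMS) difference of log2(FPKM + 1), each gene centred on its control mean. For S100a4 the nearest were Il1rl1 at an RMS of 0.678, Actg2 at 1.02 and Cav1 at 1.67. No gene was close, as the smallest distance exceeds those of the other members. For Snai1 they were Mn1 (0.0569), Nuak1 (0.109) and 2510009E07Rik (0.110), and for Snai2 Arhgef2 (0.0688), Abcc4 (0.0796) and Sh3d19 (0.0815). For Twist2 they were Hmga1b (0.153), Bdnf (0.162) and Hmga1 (0.162). Hmga1b and Hmga1 are near-identical copies whose reads could be split between them. For Vim, Lztr1 (0.0309) and Cbll1 (0.0312) were the nearest, and for Zeb2 they were Ppfia1 (0.0461), Etv6 (0.05003) and Cdin1 (0.0545). These values carry no test.

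Other genes of the programme were tested in lists, each knockout against the control. Over all tested genes, 22.6% were called higher in both knockouts and 26.2% lower in both, with medians of -0.039 and -0.027 log2 units. These are the shares to set beside each list count below. Taken singly, guide 1 had 30.2% called higher and 37.9% lower (68.1% in all), and guide 2 had 31.9% and 33.5% (65.4% in all). The knockouts share their controls, so the calls of the 2 comparisons are not independent. The lists were put together with earlier results of these libraries known, so their counts and p-values describe these libraries and are no independent evidence of a direction. Of 100 list genes tested, 10 had a mean under 1 FPKM in at least 1 group and passed the filter through the groups where they were high. Of these, 7 were called higher and 2 lower in both knockouts.

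Further EMT transcription factors went both ways. Of 21 listed, 13 were tested: 4 rose and 5 fell in both knockouts. Hmga2, a chromatin protein that induces SNAIL genes, rose from a control mean of 3.25 ± 0.761 FPKM (SD, n = 3) to 26.5 ± 1.91 in guide 1 libraries and 7.37 ± 0.545 in guide 2 libraries. Ets1 rose by 1.39 and 0.46 log2 units, and Sox9, a partner of SLUG, fell by 0.66 and 0.91. The 13 had a median of -0.14 with guide 1 and -0.089 with guide 2.

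Of 16 epithelial regulators that oppose EMT, 3 were tested. Klf4, a differentiation factor of squamous epithelium, rose from 2.06 ± 0.350 FPKM to 3.87 ± 0.597 and 8.92 ± 0.221, and Foxa2 fell by 0.41 and 0.85. Ovol1 was at 0 in all control libraries and at a mean of 0.0404 and 0.0174 FPKM in the knockouts, and Grhl2 had no row. Among the 5 tested Id proteins and helix-loop-helix partners of TWIST, 1 rose and 1 fell in both knockouts. Tcf3, which encodes the E2A partner, rose by 0.23 and 0.14. Id3, an inhibitor of these factors, fell by 0.14 with guide 1 and by 1.44 with guide 2. Larger falls were called in 1 knockout only. Id2 fell by 2.13 with guide 2 (limma adjusted p = 7.88e-09, and 0.147 with guide 1). Id4 fell by 1.56 with guide 1 (limma adjusted p = 1.22e-07, and 0.413 with guide 2).

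Small calls among these depended on the setting. Id3 with guide 1 did not pass after quantile normalization (limma adjusted p = 0.156) or trimmed mean rescaling (0.0821), nor without guide 1 replicate 2 (0.0765) or control replicate 1 (0.0567). Tcf3 with guide 2 did not pass without guide 1 replicate 1 (0.0541), guide 2 replicate 2 (0.109), guide 2 replicate 3 (0.0967), control replicate 1 (0.128) or control replicate 2 (0.10). It also did not pass with no filter (limma adjusted p = 0.0621) or a constant prior variance (0.0586).

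Of 30 corepressors and stability factors of the SNAIL, ZEB and TWIST proteins, 18 were tested: 4 rose and 2 fell in both knockouts. Pak1, a kinase that phosphorylates SNAIL, rose by 0.71 and 0.91, Csnk1e, a casein kinase, by 0.70 and 0.65, and Limd1, a LIM protein corepressor, by 0.43 and 0.62 log2 units. Ctdsp1, a phosphatase that stabilises SNAIL, fell by 0.21 and 0.41. Cops2, a subunit of the COP9 signalosome, fell by 0.43 and 0.14. The guide 2 call of Cops2 was lost after quantile normalization (limma adjusted p = 0.0958) and without guide 2 replicate 1 (0.0714), guide 2 replicate 2 (0.0778), control replicate 1 (0.0980) or control replicate 2 (0.0669).

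Among mesenchymal genes of EMT 14 of 30 were tested, of which 8 rose and 5 fell in both knockouts, with medians of 0.46 and 0.26. Acta2, smooth muscle actin, rose by 3.07 and 2.10 log2 units. Itgb3, an integrin subunit, rose from 0.0981 ± 0.0456 FPKM to 3.97 ± 0.391 and 0.850 ± 0.0930, and only its guide 1 mean exceeded the filter of 1 FPKM. Mmp3 and Loxl2 likewise had a mean under 1 FPKM in at least 1 group, and all 3 are among the 8 that rose. Mmp2, a gelatinase, fell by 3.45 and 3.09, and Lox, a collagen crosslinking enzyme, fell by 1.02 and 1.01. Cdh2 (N-cadherin) and Fn1 (fibronectin) had no row.

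Of 30 epithelial genes that EMT factors repress, 7 were tested, of which 5 rose and 2 fell in both knockouts. Among these 7, Cdh3, Cldn1, Llgl2 and Cds1 passed the filter with a mean under 1 FPKM in at least 1 group, 2 of them higher and 2 lower, so the count depends on the filter and is a description. Jup and Pkp1, with no group mean under 1 FPKM, rose by 2.42 and 1.38 with guide 1 and by 1.13 and 2.30 with guide 2. Krt18, a keratin of simple epithelia, rose by 4.68 with guide 1 and 0.35 with guide 2. That guide 2 call was lost with no filter (limma adjusted p = 0.0559) and without guide 2 replicate 1 (0.0533), control replicate 2 (0.0515) or control replicate 3 (0.0614). Cdh3 (P-cadherin) fell by 3.53 and 3.40, and Cds1, an enzyme of phospholipid synthesis, fell from 4.84 ± 0.235 FPKM to 0.140 ± 0.0720 and 0.106 ± 0.0430. Cdh1 and Epcam had no row.

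Of 11 tested genes listed as S100A4 partners or receptors, 9 rose and 1 fell in both knockouts, with medians of 0.70 and 0.47. Among all tested genes, 22.6% were called higher and 26.2% lower in both. The list was chosen with earlier results known, so its count is a description. Whether each listed gene product binds S100A4 was not examined. Myh9, the non-muscle myosin heavy chain that S100A4 binds, rose from 54.4 ± 2.78 FPKM to 110 ± 6.87 and 107 ± 9.81 (SD, n = 3), with limma adjusted p = 7.17e-07 and 1.25e-06. Tpm1, a tropomyosin, rose by 1.84 and 1.12 log2 units. Ccn2, a matricellular protein placed on the list but not given here as a binding partner, rose by 3.40 and 0.47. Tlr4, a proposed receptor, fell by 0.46 and 0.61.

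Among vimentin partners and other intermediate filament genes, 9 of 13 rose and 2 fell in both knockouts, with medians of 0.52 and 0.42. Nes, which encodes nestin, a filament protein that assembles with vimentin, rose from a control mean of 0.474 ± 0.0539 FPKM to 19.9 ± 0.600 in guide 1 libraries and 3.43 ± 0.172 in guide 2 libraries. The control mean of Nes was under 1 FPKM, so it passed the filter through the knockouts. Plec, the filament linker plectin, rose by 1.49 and 0.83. Lmnb1 (lamin B1) fell by 1.14 and 1.07, and Kif5b, a kinesin that carries vimentin, by 0.60 and 0.82.

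Of 17 tested upstream signals 9 rose and 5 fell in both knockouts, with medians of 0.41 and 0.30. Hes1, a Notch target, rose by 2.55 and 0.97, Jag1, a Notch ligand, by 1.37 and 1.36, and Bmp4 by 1.33 and 1.17. Jag1 averaged 0.397 FPKM in the control and passed the filter through the knockouts, at 2.62 and 2.58 FPKM. Hey1, another Notch target, fell by 0.54 and 1.74, and Fgf2 by 0.60 and 1.61.

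**Figure D5:**
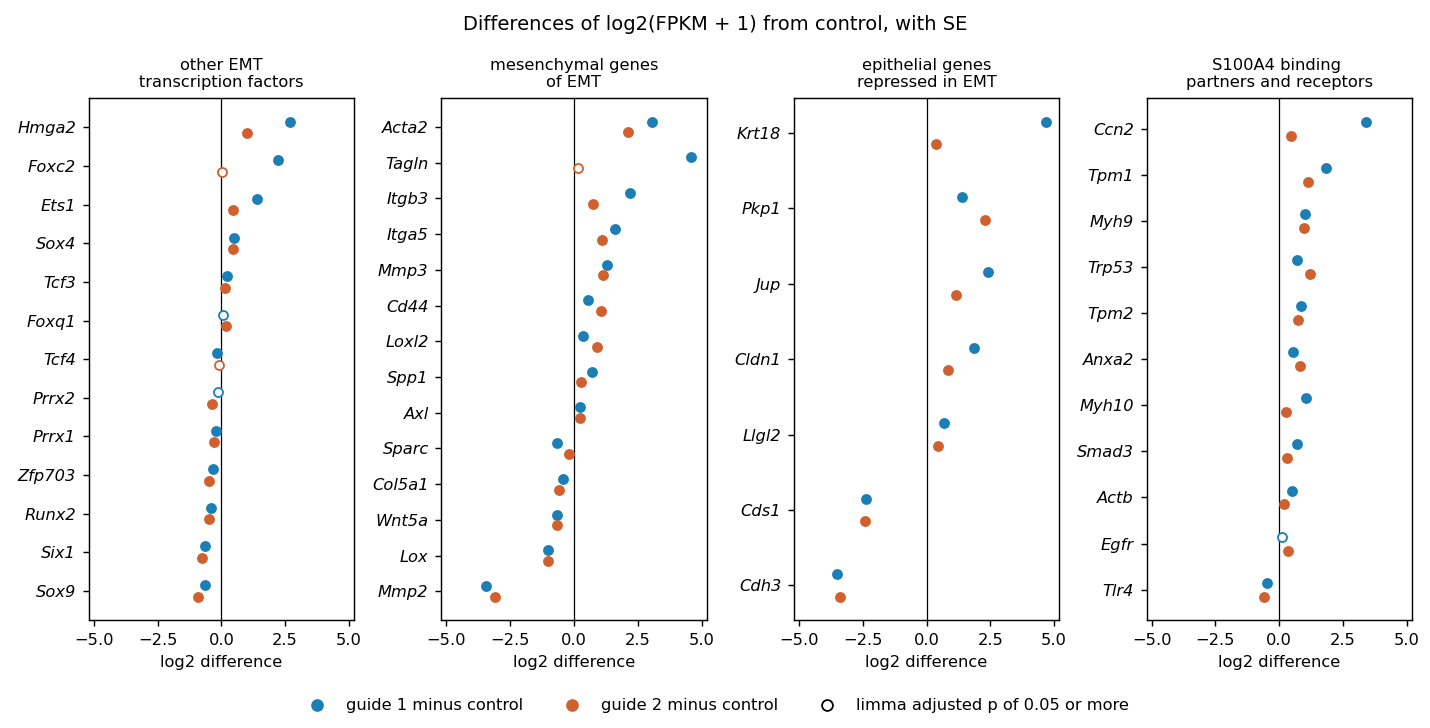
Differences of log2(FPKM + 1) from control (horizontal axes, with SE) for the tested genes of 4 lists, guide 1 in blue and guide 2 in orange; open points have a limma adjusted p of 0.05 or more. Transcription factors lie on both sides of 0. In both knockouts 9 of 11 genes listed as S100A4 partners or receptors were called higher, as were 22.6% of all tested genes. On this scale the epithelial list holds the largest rise (Krt18 with guide 1) and the largest fall (Cdh3 with guide 1). The order differs by ratio of FPKM means. With guide 1, Foxc2 rose 45.4 times and Itgb3 40.5 times, both from control means under 1 FPKM, and Krt18 32.1 times. Cdh3 fell 39.99 times with guide 1, less than Cds1 with guide 2. Mmp2 of the mesenchymal list fell more than Cds1 of the epithelial list on this scale only. By ratio of FPKM means, Cds1 fell 34.6 times with guide 1 and 45.85 times with guide 2, and Mmp2 17.98 and 12.13 times.

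S100a4, Vim and Twist2 are also expressed by fibroblasts, and S100a4 by macrophages, so markers of other cell types were read beside them. Of 14 fibroblast markers other than Twist2, 4 had a row, and their summed level was 1.56 to 2.38 FPKM in the control, 3.94 to 4.60 with guide 1 and 13.6 to 15.9 with guide 2. Most of it was Fbn1 and Postn, while Col1a2 reached at most 0.875 FPKM and Dpt 0.0383 FPKM. Of 15 leukocyte markers 4 had a row, with sums of 0.473 to 1.08, 1.49 to 1.82 and 2.05 to 2.67 FPKM, mostly Cd68. Lyz2 reached at most 0.204 FPKM, Fcer1g 0.287 FPKM and Aif1 0.0525 FPKM. Both sums followed the order of S100a4 over the groups, and their part in its levels was not tested. The sums of endothelial markers (3 of 10 with a row) were 1.14 to 1.68 FPKM in the control. They were 0.678 to 0.765 with guide 1 and 0.873 to 0.954 with guide 2. Of these markers, only Erg was highest in the control, averaging 1.47 FPKM there, 0.0334 with guide 1 and 0.850 with guide 2. Kdr averaged 0.005, 0.667 and 0.0569 FPKM in the same order, and Vwf 0, 0.0192 and 0.0140 FPKM. Neural crest and Schwann markers (4 of 10) summed to 0.615 to 0.918, 0.365 to 0.864 and 0.926 to 1.23 FPKM. Among 6 of 11 muscle markers with a row, Cnn1, a smooth muscle calponin, held nearly all the signal, and the others reached at most 0.134 FPKM. The muscle sums were 196 to 201 FPKM in the control, 192 to 195 with guide 1 and 82.9 to 84.4 with guide 2, and Cnn1 averaged 199, 193 and 83.4 FPKM.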

How the data were processed

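Values were used as the authors deposited them, one FPKM value for each gene in each library (per the file headers). The tools listed in the submitters' processing notes are HISAT2, StringTie, cutadapt and FastQC, with no role given. Their versions, the genome build and the gene models were not given in the sources used here. As FPKM carries no read total, counting error could not be estimated and count tests were not used.

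Of 15620 rows, 174 that share 62 symbols were left out. The remaining 15446 genes held sums of 162625 to 168620 FPKM per library, and 6965 with a mean of at least 1 FPKM were tested. Library correlations of log2 values lay between 0.991 and 0.993 within groups and between 0.893 and 0.950 across groups. The targeted gene, Csmd3, was not analysed here, and the labels were therefore taken as given. Groups and replicate numbers came from the sample titles.

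Linear models on log2(FPKM + 1) over all 9 libraries used limma 3.58.1 (R 4.3.3) and a mean-dependent prior variance. All adjusted p-values are Benjamini-Hochberg values over the 6965 genes, called under 0.05, and SE refers to this model. The script was run on simulated data with normal noise and few changed genes. These rows differ from that setting, so the run checked the code and not the calls made here. Fold changes on this scale understate changes of low genes.

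Members and lists were chosen with earlier results of these data known. The contrast between guides was planned as a test of the members, but is the difference of the contrasts known when they were chosen. For members it is therefore given without p-values, and the count past the threshold is a description. Every member with a row was named. From each list, the 3 genes with the largest mean difference among those called in both knockouts, up to 2 of the opposite sign, every S100 gene with a row, and Cdh1, Cdh2, Fn1, Epcam, Grhl2 and Ovol1 were named. Some further list genes are named for their values, outside this rule. Some genes are in more than 1 list. For likeness, the 3 nearest genes to each member were taken, of which 1 is not reported here. Promoter sequences came from RefSeq (GRCm38.p6), where 6 of 8 members matched, and exon overlaps from GENCODE M21. Alternatives were another pseudocount, other filters, quantile and trimmed mean scaling, the replicate number as a block, a prior variance held constant, a fit on the 6 libraries of one comparison, and the omission of single libraries.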

Additional observations from a re-analysis of the deposited data

Results flagged for a closer look

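The difference between guide 2 and guide 1 lay past the threshold (limma adjusted p under 0.05) for 5 of 6 members, and for 54.5% of all tested genes. Their values under both guides were known when they were chosen, so this is a description and no test of a difference. The log2 difference of guide 2 from control, less that of guide 1, was positive for S100a4 (2.32), Snai1 (1.01) and Snai2 (0.51), and negative for Vim (-0.28) and Twist2 (-0.62).

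The same threshold was passed by 23 of 36 tested list genes named by the rule above, from lists also chosen with earlier results known. It was positive for 4 of them, Klf4 (1.03), Cops2 (0.29), Mmp2 (0.36) and S100a13 (1.15). It was negative for 19: Sox9 (-0.25), Hmga2 (-1.72), Ets1 (-0.92), Foxa2 (-0.44), Id3 (-1.30), Ctdsp1 (-0.20), Acta2 (-0.97), Itgb3 (-1.42), Krt18 (-4.33), S100a6 (-0.42), S100a11 (-0.25), Tpm1 (-0.72), Ccn2 (-2.92), Nes (-2.24), Plec (-0.66), Kif5b (-0.23), Hey1 (-1.21), Hes1 (-1.58) and Fgf2 (-1.01). Such differences were common among all tested genes, where 54.5% were called in either direction, and each guide is represented by 1 clone, so guide and clone cannot be told apart.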

How the results depend on the processing

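The numbers of genes called, 4745 with guide 1, 4557 with guide 2 and 3793 between guides, stayed within 1.5 times under every alternative run. They were 4764, 4559 and 3784 with the replicate number as a block. Deviations of same-numbered libraries from their group means had correlations from -0.107 to 0.245. Between guide 1 and guide 2 these were 0.245, 0.0219 and 0.21, against -0.234 to 0.0423 for different numbers. Same-numbered knockout and control libraries gave -0.107 to 0.0556. Whether the numbers pair the knockout libraries cannot be told from these values. Leaving out single libraries gave 4438 to 4805, 4212 to 4508 and 3375 to 3885 genes. Among member differences from the control, 1 changed sign: Vim with guide 2 after quantile normalization, at -0.021. The difference of Zeb2 between guides also changed sign, lying between -0.011 and 0.090 when single libraries were left out. The differences between guides of S100a4, Snai1, Snai2, Twist2 and Vim kept their sign in each alternative run. Over the list genes named by the rule above, 9 values with guide 1, 17 with guide 2 and 7 between guides lost their call in single settings. With guide 1 and between guides, 1 and 7 newly passed. Those that lost a call and are named in the text are given there, apart from Mmp2 between guides. It did not pass with no filter (limma adjusted p = 0.0565), without guide 1 replicate 2 (0.0666) or without guide 2 replicate 2 (0.0660). With a filter at 5 FPKM, Zeb2 gave no value. Depth is unknown, so counting error could not be set against the low values of Zeb2, Twist2 and control S100a4.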
